A study of Homo sapiens with 31 samples.

Results

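CTBP2 ChIP-seq sites were compared in MUTZ3 cells with and without an induced competitor of CTBP2. MUTZ3 is a human acute myeloid leukemia cell line in which a rearrangement of chromosome 3 activates EVI1, and all cells compared here carried a lentiviral, doxycycline (dox) inducible 4× PLDLS construct. The 4 libraries are 2 of dox-treated cells and 2 of untreated cells of the same line, harvested at 72 hours, of 13 samples of the series with a peak list used here and 31 samples in all. Chromatin was crosslinked with DSG and formaldehyde, and the peaks of each library were called by the authors against the input of its own treatment, of which the series has 1 per treatment. Untreated cells carry the construct as well, and no dox-treated cells without it are among these libraries, so effects of dox itself and of the induced construct cannot be told apart.

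CTBP2 is a corepressor that does not read DNA itself and reaches chromatin through transcription factors that hold a short PXDLS-type motif, such as EVI1 and the ZEB proteins. It brings histone deacetylases, demethylases and the CoREST proteins to its sites. The 4× PLDLS competitor presents 4 copies of the motif, taken from the EVI1 proteins of human and mouse, and competes for the same pocket of CTBP2.

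A site was a merged interval with a peak in both libraries of a group, where sharing 1 bp counted as overlap. There were 37227 sites in untreated cells among 76725 intervals called in at least 1 untreated library, and 16152 sites in dox-treated cells. An untreated site is called lost when neither dox library had a peak there and kept when both had one. Of the untreated sites, 15273 were lost, or 41.0% (95% Wilson interval 40.5 to 41.5, counting error only), 14297 were kept, or 38.4%, and 7657 had a peak in 1 dox library. These shares are the background against which all counts below are read.

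Without dox the peaks numbered 62232 and 56526, and with dox 24588 and 23878. The groups did not overlap, and the exact two-sided permutation test over the libraries gave p = 0.333, the smallest that 2 against 2 libraries allow. The lists hold no reads, so the depth is unknown, and a difference in depth between treatments cannot be told apart from a difference in binding. Ranks by fold enrichment within a list were therefore used in place of fold enrichment, since they need no common scale. Replicate numbers are not stated to mark separate cultures, and spreads may be technical.

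The sites of best rank are shown by sequence. The 5 kept and the 5 lost sites with the best mean rank in the untreated lists, and the 2 best ranked sites gained with dox, are given as the plus strand of GRCh37, the build named hg19 in the authors' files, over 101 bases centred on the summit of the peak. Capitals mark the letters CAGGTG or their reverse complement CACCTG, the E-box read by ZEB1 and ZEB2. Each site is named by the protein-coding gene with the nearest transcription start site (TSS). The kept sites show E-boxes repeated in arrays.

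DBNDD1, chr16:90098816-90098916: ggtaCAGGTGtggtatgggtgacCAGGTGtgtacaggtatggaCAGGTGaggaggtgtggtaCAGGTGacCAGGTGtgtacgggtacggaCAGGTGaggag
KANK2, chr19:11320641-11320741: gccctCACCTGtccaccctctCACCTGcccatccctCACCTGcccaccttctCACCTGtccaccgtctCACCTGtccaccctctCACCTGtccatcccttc
BOK, chr2:242512268-242512368: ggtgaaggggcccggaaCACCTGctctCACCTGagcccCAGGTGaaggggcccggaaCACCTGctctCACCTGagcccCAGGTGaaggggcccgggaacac
ADGRA1, chr10:134871479-134871579: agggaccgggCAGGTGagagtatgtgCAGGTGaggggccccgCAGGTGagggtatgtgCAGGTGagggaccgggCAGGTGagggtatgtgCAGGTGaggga
ID2, chr2:8641065-8641165: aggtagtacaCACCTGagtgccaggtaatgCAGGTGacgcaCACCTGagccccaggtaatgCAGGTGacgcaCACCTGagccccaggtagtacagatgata

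The kept site nearest to DBNDD1 lies in an intron of GAS8, and it ranked 1 in all 4 libraries. The site nearest to KANK2, in an intron of DOCK6, ranked 4 and 2 before dox and again 4 and 2 with dox. The exonic site of BOK, a BCL2 family gene, ranked 2 and 5 and then 27 and 236 with dox. The intergenic site nearest to ADGRA1 ranked 3 and 6 and then 2 and 3, and the intergenic site 177860 bp upstream of ID2 ranked 10 and 4 and then 6 and 19. All 5 ranked at 236 or better in every library, and windows of 201 bases at their summits held 11, 10, 14, 12 and 5 copies of the E-box in the order given.

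The 5 lost sites of best rank show no such arrays. They ranked lower in the untreated lists than the 5 kept sites, so the sets differ in strength as well as in fate.

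GIPC1, chr19:14607026-14607126: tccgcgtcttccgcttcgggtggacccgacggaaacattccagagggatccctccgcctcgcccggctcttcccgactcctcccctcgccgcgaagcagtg
HABP2, chr10:115033252-115033352: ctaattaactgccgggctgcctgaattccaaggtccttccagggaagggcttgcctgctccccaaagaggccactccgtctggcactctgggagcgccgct
CLIC6, chr21:36260978-36261078: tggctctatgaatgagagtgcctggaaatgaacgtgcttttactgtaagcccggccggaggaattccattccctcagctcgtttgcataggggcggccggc
SEC13, chr3:10502044-10502144: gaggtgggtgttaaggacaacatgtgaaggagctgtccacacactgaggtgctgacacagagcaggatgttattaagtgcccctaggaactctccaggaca
TMEM51, chr1:15468505-15468605: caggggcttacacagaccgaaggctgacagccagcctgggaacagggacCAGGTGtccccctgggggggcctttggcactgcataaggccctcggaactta

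The first of them lies in the promoter of GIPC1, a gene for a PDZ scaffold protein, 115 bp upstream of the TSS, and ranked 705 and 1487 in the untreated lists. The intergenic site nearest to HABP2 ranked 2361 and 1748. The site nearest to CLIC6 lies in an intron of RUNX1, a transcription factor that blood stem cells depend on, and ranked 1791 and 2829. The site nearest to SEC13, in an intron of the calcium pump gene ATP2B2, ranked 3380 and 2376, and the intergenic site nearest to TMEM51 ranked 3660 and 2263. Neither dox library had a peak at any of them. TMEM51 alone among the 5 held the E-box in its 201 bases, with 2 copies. EVI1 peaks were called at all 5 in both untreated and both dox EVI1 libraries of the same cells, but further down the lists with dox. Their EVI1 ranks ran from 3920 to 21594 in the untreated lists and from 8683 to 52609 in the dox lists. The site nearest to SEC13 ranked 52609 and 46395 of 53806 and 47599 EVI1 peaks with dox.

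The 2 sites gained with dox of best rank hold 1 and 0 copies of the E-box in 201 bases.

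C4BPB, chr1:207258279-207258379: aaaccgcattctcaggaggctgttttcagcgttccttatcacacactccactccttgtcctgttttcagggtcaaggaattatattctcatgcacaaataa
PDLIM5, chr4:95441330-95441430: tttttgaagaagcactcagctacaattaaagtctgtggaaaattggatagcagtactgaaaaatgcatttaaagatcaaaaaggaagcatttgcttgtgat

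The arrays were noticed in these sequences and then counted over all sites, and the limit of 4 copies was set after seeing them, so the counts are a description. Of all untreated sites on chromosomes 1 to 22, X and Y, 25.5% held at least 1 E-box in 201 bases and 365 sites, or 0.991%, held 4 or more. In windows of the same length 2 kb downstream of the sites, 0.0868% held 4 or more. Among the 20 sites of best mean rank 12 held 4 or more, among the best 100 there were 27, and among the best 1000 there were 59. All of the best 100 were kept.

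The same was counted in each list on its own. Of the 20 strongest peaks, 14 and 10 held 4 or more E-boxes in the untreated libraries and 13 and 9 in the dox libraries. In the EVI1 lists of the same cells none of the 20 strongest peaks did, in untreated or in dox-treated libraries. In the untreated EVI1 lists the kept site near DBNDD1 ranked 1805 and 2453, that near KANK2 110 and 100 and that of BOK 5051 and 3928. The site near ADGRA1 ranked 672 and 539 there, and the site near ID2 15952 and 11707. With dox the EVI1 ranks of these kept sites ran from 913 to 40303.

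The lost share was also counted by the number of E-boxes. It was 39.0% at sites with no copy, 46.0% with 1, 51.7% with 2 and 55.6% with 3 copies, and 33.2% with 4 or more. In dox library 1 the shares without a peak were 47.3, 53.7, 60.3, 62.1 and 36.2% in the same order, and in dox library 2 they were 51.4, 58.2, 64.9, 68.3 and 49.6%. Of the sites with 4 or more copies 40.6% fell into the strongest of 5 equal strength groups, and averaged over the strength groups their lost share was 45.2%, against 39.6% with no copy, 43.7% with 1, 48.1% with 2 and 52.1% with 3. At equal strength the lost share of sites with 4 or more copies was thus lower than with 2 or 3 copies only, and higher than with no copy or 1. In the strongest group 6 of 148 sites with 4 or more copies were lost, in the next 26 of 70 (37.1%, against 21.7% with no copy) and in the weakest 29 of 38.

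Loss followed the strength of the site before dox. The untreated sites were divided into 5 equal groups by the mean of their rank in both lists. From the strongest group to the weakest, 3.92, 23.3, 44.1, 60.0 and 73.8% of the sites were lost. Of 261 sites ranked within the first 500 of both untreated lists none was lost and all were kept, and of 2977 ranked within the first 5000 of both lists 21 were lost. Among 15410 sites that lay within the strongest 23878 peaks of both untreated lists, the size of the smallest list, 15.8% were lost. With all 4 lists cut to that size, the mean share of untreated sites without a peak in a dox library was 25.7%, against 51.3% ± 3.03 (SD, n = 2) with the whole lists.

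The order of the kept sites among themselves was tested as well. The 14297 sites with a peak in all 4 libraries were ranked within each list, and the normal scores of the ranks were compared with limma. No site passed a Benjamini-Hochberg adjusted p of 0.05, 0% in either direction, while 2725 had an unadjusted p below 0.05. Without dox replicate 1, 173 sites passed, 43 higher and 130 lower. That fit has 1 dox library, which is assumed to vary like the untreated pair, the only source of its spread. The fit paired by replicate number is given with the other settings.

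Genes were then taken by nearest TSS. Of 20175 protein-coding genes, 13650 had at least 1 untreated site and 8171 had at least 1 lost site. Loss was spread thinly: 4782 genes had 1 lost site, 1824 had 2, and 42 had 10 or more, which together held 3.60% of the lost sites. Of 7609 genes with 2 or more sites, 695 lost all of them (9.13%), 579 kept all of them in both dox libraries (7.61%), and the others were mixed. The count of 695 rests on all 4 libraries: it was 1282 without untreated replicate 1, 1963 without untreated replicate 2, 1389 without dox replicate 1 and 1062 without dox replicate 2, where fewer lists define a site or a loss. With the lists cut to the size of the smallest it was 68. The strongest site of a gene was lost in 26.0% of the genes, while the further sites of the same genes were lost at 49.8%. At equal strength the shares were 37.8% and 42.1%.

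The genes with the most lost sites were genes with many sites, and most of them kept sites too. They were chosen for loss in these lists, so lower peak numbers with dox follow from the choice, and over the whole lists the dox peaks numbered 0.408 of the untreated ones. BCOR, a corepressor of BCL6 and a part of a Polycomb complex, had 44 sites, of which 22 were lost and 13 kept. Its CTBP2 peaks went from 62 and 52 to 22 and 21. RUNX3, a runt transcription factor, lost 20 of 33 sites, and its peaks went from 69 and 40 to 17 and 13. ZMIZ1, a coactivator of the PIAS type, lost 20 of 40 sites with 74 and 47 peaks before and 19 in each dox library. SMAD7, the inhibitory SMAD of TGF-β signaling, lost 19 of 39 sites, with 67 and 46 peaks before and 17 and 20 with dox.

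The further genes of the list had other roles. MYH9, the heavy chain of nonmuscle myosin, lost 15 of its 19 sites, and its peaks went from 24 and 23 to 5 in each dox library. That share, 78.9%, was the highest of the 9 genes described, and the lost shares of the strength groups alone would have given 9.05 lost sites. DNAJB6, a chaperone gene, lost 15 of 24 sites, and ZFP36L1, a gene for a protein that binds AU-rich messages, lost 15 of 29. ID2, an inhibitor of basic helix-loop-helix factors, lost 15 of 45 sites, where strength alone would have given 15.6. Its peaks went from 65 and 64 to 28 in each dox library, and its best site ranked 10 and 4 before and 6 and 19 with dox.

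The gene with the most lost sites, TMEM121, stands for a stretch of chromosome. It had 80 sites, of which 38 were lost, but their median distance from its TSS was 561 kb. They lie over 1293 kb toward the end of chromosome 14, a stretch that holds the immunoglobulin heavy chain genes, which are not counted among protein-coding genes. Sites named by the other genes described above were often far from the TSS too. Their median distance ran from 29.5 kb at MYH9 to 194 kb at BCOR and 206 kb at ID2. At SPACA7, described below, it was 86.6 kb.

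Of the genes that lost every site, 20 had 5 sites, the most found. The rule left this tie open, and the 5 named here are those for which strength alone would have given the fewest lost sites. Their stronger sites thus follow from the choice. TRAF5, an adaptor of tumor necrosis factor receptors, had 6 peaks in each untreated library and none with dox. POMC, the precursor of adrenocorticotropin, had 10 and 7 peaks before and none after. EDN2, an endothelin gene, had 11 and 6 before and none after, and FAM131C had 18 and 5 before and none after. GATA3, the transcription factor of T helper cells, lost all 5 sites, and its 5 and 9 peaks before went to 1 peak in each dox library, outside these sites. The best ranks of these genes in the untreated lists ran from 5238 to 13292.

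Of the genes that kept every site, 9 had 5 sites. Those of them named here are the ones where strength alone would have given the most lost sites. Their weaker sites thus follow from the choice. SPACA7, a gene of the sperm acrosome, kept 6 of 6 sites, the most found, with best ranks of 100 and 123 before and 88 and 381 with dox, and with more peaks after dox, 13 and 16, than before, 8 and 7. CDC37, a cochaperone of HSP90, kept 5 of 5 sites, with best ranks of 3768 and 7828 before and 15373 and 12211 with dox. LIMS1, an adaptor of focal adhesions, PARP8 and SLC2A5, the fructose transporter, each kept 5 of 5. Strength alone would have given 0.636 lost sites at SPACA7 and from 1.40 to 2.19 at the others. At a fold of at least 5, SLC2A5 lost 60% of its sites and the other genes named here none. Without untreated replicate 2 the lost shares were 58.3% at CDC37, 37.5% at SLC2A5 and 28.6% at LIMS1 and at PARP8. SPACA7 lost none there.

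Gene groups that fit the cell were read against 41.0%. The lists were put together with earlier results of these data known, and no test was run on them. From each list the genes with 5 or more sites and a lost share of at least 75% or at most 10% are named. Sites nearest to lymphoid genes were lost at 50.9% (54 of 106), where strength alone would have given 40.6%, and the shares without a peak were 61.3% in dox library 1 and 62.3% in dox library 2. PAX5, the B cell factor, lost 7 of 9 sites, and TBX21, the factor of type 1 helper cells, lost 5 of 6. GATA3, described above, belongs to this list too. Members between these limits, chosen here after their values were seen, included IKZF1, the Ikaros factor, with 1 of 9 lost, and NOTCH1, a receptor of T cell fate, with 3 of 9. CD3E, a chain of the T cell receptor complex, lost none of 3. Sites of TGF-β and SMAD pathway genes were lost at 45.3% (97 of 214, 38.2% by strength). Here SMAD2, a signal transducer of TGF-β, lost 9 of 12, while TGFBR1, the type I receptor, lost none of 5. Erythroid and megakaryocyte genes lost 47.8% (33 of 69, 45.4% by strength), among them EPB42, a protein of the red cell membrane, with 4 of 5.

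Most of the other groups lay below the background, but near it. The lymphoid genes alone had a Wilson interval that left out 41.0% (41.6 to 60.3, counting error only). For stem cell surface and adhesion genes, the lowest group, it was 27.3 to 41.1. Stem cell surface and adhesion genes lost 33.9% (60 of 177, 40.6% by strength), and ITGA4, the α4 integrin, lost none of 5 sites. Neutrophil and monocyte differentiation genes lost 35.6% (47 of 132, 40.1% by strength). NCF1, a subunit of the phagocyte oxidase, lost none of 7, but NCF1 has near-identical copies and reads may be split between them. Myeloid transcription factor genes lost 38.9% (93 of 239, 41.0% by strength) and stem cell and leukemia transcription factor genes 41.8% (102 of 244, 39.9% by strength). Growth factor receptor genes lost 38.1% (67 of 176, 39.0% by strength) and cell cycle genes 43.8% (42 of 96, 39.5% by strength). HLF, a stem cell factor, lost 4 of 5, and TNFRSF1A, a tumor necrosis factor receptor, lost none of 5. Genes of the CTBP corepressor complex itself lost 39.4% (76 of 193, 39.1% by strength), and RCOR1, which codes for CoREST, lost none of 6.

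The order of the groups changed with the 4 lists cut to the size of the smallest, where 16.4% of all sites were lost. Lymphoid genes (28.9%, 13 of 45) and cell cycle genes (27.3%, 12 of 44) then lay above this share. TGF-β and SMAD pathway genes lay below it, at 11.2% (10 of 89), and the other 7 groups were between 8.93% and 16.0%.

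Gene classes were set by symbol. Homeobox and forkhead genes lost 49.8% of 309 sites, against 44.1% by strength, with 57.0% and 64.1% without a peak in the dox libraries. Keratin genes lost 63.0%, but of 46 sites only. Zinc finger genes lost 41.3% of 806 sites, solute carrier genes 40.4% of 726, ribosomal protein genes 40.2% of 164, olfactory receptor genes 44.3% of 97, replication-dependent histone genes 35.3% of 68 and HOX genes 38.1% of 42. HLA and protocadherin genes had 8 and 19 sites, of which 4 and 11 were lost.

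Lost sites were narrow before dox. The median width of the untreated peaks at lost sites was 470 bp in library 1 and 340 bp in library 2, and at kept sites it was 863 and 688 bp. The ratio of lost to kept was 0.519 ± 0.0357 (SD, n = 2), and averaged within strength groups it was 0.712 ± 0.0769 (SD, n = 2). Of sites with a mean width below 500 bp 62.4% were lost, and of 481 sites of 2000 bp or more 13 were lost, or 2.70%. Peaks at kept sites were narrower with dox, with medians of 409 and 389 bp. Between 87.3% and 91.9% of the kept sites were narrower in a dox library than in an untreated one, while between the untreated libraries 64.4% were narrower in library 2 than in library 1. The summit stayed in place: its median shift was 47 to 55 bp between treatments, 45 bp between the untreated libraries and 54 bp between the dox libraries.

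Distance to a TSS gave a result that differed in size between the dox libraries. Within 1 kb of a TSS lay 8904 untreated sites, of which 30.1% were lost, against 44.4% of 27944 sites farther away. Exonic sites outside promoters were lost at 43.4%, intronic ones at 45.3% and intergenic ones at 43.8%. In dox library 1 the share without a peak was 17.0 percentage points lower near a TSS, and in dox library 2 it was 5.71 points lower, a mean difference of −11.4 ± 7.98 (SD, n = 2). Averaged within strength groups the differences were −12.3 and −0.833 points. The direction turned with a minimum fold enrichment of 5, where the mean difference was 4.46 points, and with strength groups set by −log10 p it was 0.0039 points. Beyond 1 kb the lost share fell with distance, from 48.2% at 1 to 5 kb to 46.2% at 5 to 20 kb, 43.9% at 20 to 100 kb and 39.7% beyond 100 kb.

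Base composition moved with this difference between the dox libraries. The sites were divided into 5 equal groups by the G and C content of 201 bases at the summit. In the richest group, from 66.2%, 40.2% had no peak in dox library 1 and 54.4% had none in dox library 2. In the poorest group the shares were 49.1% and 45.5%. Within each of these groups, at equal strength, the share without a peak in dox library 2 was lower within 1 kb of a TSS. From the poorest group to the richest it was 40.7, 46.5, 50.8, 50.4 and 55.8% near a TSS. Farther away it was 41.2, 54.1, 58.9, 60.8 and 60.1%. The part of base composition in the difference near a TSS was not tested.

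Motifs of other factors were searched in the same 201 bases on both strands. The GATA-type letters GATAAG, close to the core that the first zinc finger domain of EVI1 reads, were found at 6.15% of kept and 3.83% of lost sites, with 4.78% of all sites and 5.58% of the windows 2 kb away. The ETS letters CCGGAAG were found at 9.77% of kept and 4.70% of lost sites, against 7.21% of all sites and 0.999% of the windows 2 kb away. The RUNX letters TGTGGTT were found at 8.12% of kept and 5.34% of lost sites (6.55% of all, 3.30% away), and the letters GAGGAAG of PU.1 type at 24.9% and 17.3% (20.6% of all, 6.71% away). Letters read by the second zinc finger domain of EVI1, GAAGATG, were at 4.16% and 3.83% (3.95% of all, 3.41% away). The letters GGGCGG of SP and KLF factors were at 28.7% and 23.6% (26.8% of all, 6.90% away), those of AP-1, TGANTCA, at 6.95% and 6.10% (6.37% of all, 5.62% away), and a part of the CTCF core, AGGGGGC, at 8.66% and 10.3% (9.69% of all, 3.62% away). The ETS and PU.1 type letters share GGAAG, and copies of the SP letters and of the CTCF part can overlap by GGGC. With the strength groups weighted equally, the differences between kept and lost sites narrowed for all of these letters but those of AP-1 and CTCF. The SP and KLF letters were then at 27.3% of kept and 26.3% of lost sites, the RUNX letters at 7.52% and 5.83% and the ETS letters at 8.68% and 5.85%. Sites with the ETS letters, which had the widest gap in lost share, were lost at 34.0% and sites without at 41.4% at equal strength. For the PU.1 type letters these shares were 39.2% and 41.4%, and for the SP and KLF letters 38.8% and 41.6%. For the ETS letters the shares without a peak in dox library 1 were 40.5% and 49.6%, and in dox library 2 they were 50.1% and 53.6%.

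Chromosomes differed by a narrow margin. The lost share was highest on chromosomes 19 (48.3%), 22 (47.8%) and 16 (46.0%) and lowest on chromosomes 13 and 4 (36.1% each) and 5 (36.6%). At equal strength chromosome 19 had 46.6% and chromosome 4 had 37.7%. Over the 23 chromosomes from 1 to 22 and X, the lost share followed the G and C content of the chromosome. Spearman's rho was 0.894, and 0.726 at equal strength. For genes per Mb it was 0.742, and 0.672 at equal strength, and for the mean rank of the sites 0.778. Single sites did not follow the G and C content at the summit in this way. From the poorest group to the richest, 37.0, 47.4, 46.0, 39.9 and 34.6% of the sites were lost. The values by chromosome are a description, since the chromosomes share the same libraries.

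The fate of the nearest site was compared as well. Where the nearest other site lay within 10 kb, the lost share was 43.7% if that neighbor was lost and 42.5% if it was kept. At 10 to 50 kb it was 41.5% and 37.2%, and at more than 50 kb 37.0% and 30.9%.

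EVI1 was called at most lost CTBP2 sites. In untreated cells EVI1 peaks overlapped 72.4% and 83.6% of the lost CTBP2 sites and 97.9% and 96.1% of the kept ones. In dox-treated cells EVI1 peaks overlapped 67.6% and 57.5% of the lost sites and 97.5% and 97.1% of the kept ones. CTBP2 sites with an EVI1 peak in both untreated libraries were lost at 34.0% (30643 sites), and those with none at 80.7% (2326 sites). The sites with none were also weak, with a mean rank at 63.7% of the list against 35.3%, where 0% is the top. At equal strength the lost share was 37.8% with EVI1 in both libraries and 52.6% with EVI1 in 1 library. These shares count peaks called or not called and do not measure how far the signal at a site changed.

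The lost share fell with the number of other CTBP2 lists that held the site. The 4 other CTBP2 lists of the series are of unmodified MUTZ3 cells, of MOLM1 cells, another leukemia line, and of MUTZ3 cells with the retroviral 4× PLASS control (2 libraries). From none to all 4 of these lists, the lost share was 72.1, 55.3, 27.9, 10.4 and 2.73%, and at equal strength 57.7, 48.0, 30.3, 17.9 and 9.44%. Peaks of unmodified MUTZ3 cells overlapped 59.0% of the kept and 9.10% of the lost sites, and MOLM1 peaks 81.3% and 42.8%.

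Few sites were gained. Of the 16152 dox sites 155, or 0.960%, had no peak in either untreated library. They were weak and narrow: the best ranked 3271 in dox library 1 and 2348 in dox library 2, and the median widths were 233 and 264 bp against 395 and 383 bp at the other dox sites. Of the gained sites 2.61% lay within 1 kb of a TSS, against 25.8% of all dox sites. Their median G and C content was 46.8%, against 55.7% at the other dox sites. The 5 of best mean rank were nearest to C4BPB, a gene for a binder of complement C4, to PDLIM5, in whose intron it lies, to KCTD16, to CYP1B1, a cytochrome P450 gene, and to RBKS, the ribokinase gene. The C4BPB site ranked 4052 and 3888 in the dox lists and the RBKS site 5379 and 5274. Their E-boxes were few: C4BPB held 1 copy in 201 bases and the other 4 sites none. At RBKS, KCTD16 and PDLIM5 peaks were also called in unmodified MUTZ3 cells. Of all gained sites 15.5% had one there, against 55.5% of the other dox sites. The count of gained sites was 305 and 1327 without untreated replicate 1 or 2, 1522 and 1104 without dox replicate 1 or 2, 1598 with the lists cut to equal size and 647 with summits within 200 bp.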

How the data were processed

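The authors aligned ChIP-seq reads to hg19 with bowtie 1.1.1 and called narrow peaks library by library against an input, using default settings of MACS2. Version 2.1.2 is named in the submitters' processing notes. The deposited fold is a ratio of signal at the summit to the background around it. For the summit, −log10 p and −log10 q were deposited too. Peak lists hold no counts of reads, so depth is unknown. Here, peaks were ranked by fold within each list, merged and compared by an overlap of at least 1 bp with own scripts (Python 3.11.15, pandas 2.3.3) and annotated to the nearest protein-coding TSS of GENCODE release 44 lifted to GRCh37. Rank scores were compared with limma 3.58.1 over the sites called in all 4 libraries, ranked again among these sites, which was one reading of the plan; ranks within the whole list were added as an alternative. Peak numbers were compared by an exact permutation test. Errors are SDs over 2 libraries, and Wilson intervals cover counting error only. The scripts were tested on simulated lists and scores.

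Members and gene lists were chosen with earlier results of these data known. Named genes are the 10 with the most lost sites (1 of them is not reported here), the 5 with the most sites all lost and the 5 with the most all kept (ties, which the rule left open, by how far the losses lay from those that strength would give), members of the lists with 5 or more sites and a lost share of at least 75% or at most 10%, and the 5 best ranked lost, kept and gained sites. The alternatives were other peak thresholds, overlaps, list sizes, TSS sets and strength measures, each library left out, and the replicate number as a block.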

Additional observations from a re-analysis of the deposited data

How the results depend on the processing

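The log2 ratio of peak numbers stayed below 0 in the alternatives that gave a value. Their exact p of 0.333 is the smallest these library numbers allow and says nothing about stability, and cutting the lists to equal size fixes the ratio at 0. The mean share of untreated sites without a peak in a dox library, 51.3%, was 57.3% at a −log10 q of at least 5, 63.3% at a fold of at least 5, 25.7% with equal lists, 72.4% for intervals called in either untreated library, and 49.2 to 69.8% with libraries left out in turn. The difference near a TSS reversed at a fold of at least 5 (4.46 points). With strength groups by −log10 p it was almost none (0.0039 points). It was −0.959 points at the stricter q and ran from −17.5 to −5.71 with libraries left out. The lost to kept width ratio was 0.623, 0.695 and 0.636 under the stricter q, the fold limit and equal lists, 0.424 for either untreated library, 0.712 within strength groups, and 0.402 to 0.609 with libraries left out. Genes with every site lost numbered 68 with equal lists, 2212 for either untreated library and 1062 to 1963 with libraries left out. Gained sites numbered 87 at the stricter q, 1598 with equal lists, 647 by summits and 305 to 1522 with libraries left out. The cause of these shifts was not tested beyond their construction, fewer or shorter lists. No site changed rank in limma under 6 of the alternatives that keep all libraries, 0 to 173 did with libraries left out (the lone library is then assumed to vary like the other pair), and 1042 did when ranks were taken in the whole list, 1023 of them lower, an alternative chosen after seeing the data.

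Replicate numbers are shared by the groups, but nothing says that they pair the libraries. The deviations of same-numbered libraries had a correlation of 0.165 over 14297 sites. With the replicate block the log2 ratio was −1.29, the share of untreated peaks without a peak in the dox library of the same number was 65.6%, and 735 sites changed rank in limma, 349 higher and 386 lower.

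Of 220 recomputed lost shares of named genes, 188 stayed within the Wilson interval of the value reported, and of 110 of gene lists 53 did. The intervals of genes with few sites are wide. With the lists cut to equal size, where 16.4% of all sites were lost, the genes with the most lost sites had lower shares. ID2 then lost 5.88%, ZMIZ1 7.14%, SMAD7 10.5%, RUNX3 18.2%, TMEM121 20.0% and BCOR 22.7%. ZFP36L1 lost 30.8%, DNAJB6 44.4% and MYH9 57.1%. Depth is unknown, and a peak that is not called is not shown to be unbound.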

Other observations

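The lost share changed little with the kind of the nearest gene when genes of every biotype were used. It was 39.7% where the nearest TSS was of a protein-coding gene (18244 sites), 41.3% for long noncoding RNA genes (10562 sites), 43.3% for pseudogenes (4018 sites) and 44.4% for microRNA genes (1341 sites).

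Among the sites called in all 4 libraries, untreated library 2 was closer in rank to the dox libraries than untreated library 1 was. The correlation of rank scores across these sites, which are not replicates, was 0.496 and 0.534 for library 2 with dox libraries 1 and 2, and 0.338 and 0.259 for library 1, while it was 0.611 between the untreated libraries and 0.676 between the dox libraries.

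Of the 292 lost sites in the strongest group, 291 lay on the assembled nuclear chromosomes, and 96.2% of these had an EVI1 peak in both untreated EVI1 libraries. In the weakest group, the 610 such kept sites had EVI1 peaks in both at 76.4%, against 52.8% of the 5462 lost sites.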
